A study of Mus musculus with 6 samples.

Results

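The genes described here encode the machinery of DNA replication and the regulators that take a cell from G1 into S phase. They were chosen by symbol, as a list of 59 genes, and 58 of them had a row in the deposited table of 24672 genes. The list was sorted by role into the MCM2-7 helicase, the origin recognition complex, licensing factors, factors that fire origins, DNA polymerases, the sliding clamp and its partners, enzymes of deoxynucleotide supply, G1 cyclins with their kinases, E2F and pocket proteins, and Myc factors. Myc itself was not analysed here.

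RNA sequencing compared 3 libraries labelled Dif-FGSC with 3 labelled FGSC, cultured mouse cells of strain C57BL/6 passaged more than 20 times. The labels call FGSC female germ stem cells and Dif-FGSC their differentiated form. For Dif-FGSC the STO feeders had been removed, and the cells were seeded on mitotically inactivated granulosa cells in medium with 0.1 µmol/L retinoic acid, BMP4 at 10 ng/mL and bFGF at 10 ng/mL. FGSC were kept on mitotically inactivated STO fibroblasts with 10 ng/mL LIF, 20 ng/mL EGF, 10 ng/mL bFGF and 10 ng/mL GDNF. Both media held 10% fetal bovine serum. Feeders, growth factors and retinoic acid therefore changed together and cannot be told apart. The title of the series names the onset of meiosis under retinoic acid, and chromatin structure, as its subject.

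Expression was given as FPKM, fragment counts scaled to transcript length and to the mapped total of the library. Steps between low values put the depth at 22.45, 19.4 and 19.85 M fragments in Dif-FGSC libraries and 27.55, 22.05 and 17.45 M in FGSC libraries (M for mega). Across genes, the log2 values of libraries correlated at 0.9936 to 0.9963 within groups and at 0.9625 to 0.968 between groups. The cell type in the labels was not borne out by its markers. Of 6 germ cell markers, 5 stayed under 0.1 FPKM in every library, Dazl and Sycp3 were listed at 0 throughout, and Ddx4 did not exceed 0.0104 FPKM. The other, Stra8, had 0.12, 0.0693 and 0.0686 FPKM in Dif-FGSC and 0.0249, 0 and 0 in FGSC libraries. Prdm1 averaged 0.0595 FPKM in Dif-FGSC and 0.00837 in FGSC. Both were too low to be tested. The 6 summed to 0.128 to 0.163 FPKM in Dif-FGSC and 0 to 0.0837 in FGSC libraries. Feeder markers were near 0 as well. The 6 STO fibroblast markers summed to 0.094 to 0.186 FPKM in Dif-FGSC and 0.314 to 0.588 in FGSC libraries, with Col3a1 at 0 throughout. The 6 granulosa markers summed to 0.272 to 0.452 FPKM in Dif-FGSC and 0.411 to 0.615 in FGSC libraries, with Foxl2, Fshr, Cyp19a1 and Inha at 0 throughout. Most markers of blood cells were abundant and higher in Dif-FGSC. The 6 on that list, Ptprc, Laptm5, Gata2, Kit, Spi1 and Cd34, summed to 612 to 635 FPKM in Dif-FGSC and 435 to 456 in FGSC libraries. Of the 5 tested, 4 were called higher, and Spi1 was not called (limma adjusted p = 0.124). Cd34, at 0.153 to 0.256 FPKM over all libraries, was too low to be tested. Of 6 mast cell markers, Cpa3 carried nearly all of a sum of 294 to 314 FPKM in Dif-FGSC and 266 to 301 in FGSC libraries. Cpa3 was not called (limma adjusted p = 0.27). Fcer1a and Tpsab1 stayed under 0.1 FPKM in every library. Ms4a2 averaged 0.0596 FPKM in Dif-FGSC and 0.133 in FGSC, Hdc 0.0697 and 0.0744, and Cma1 1.24 and 0.0288. The part of these markers in the differences below was not tested. In bulk RNA, fewer cells in S phase and less RNA per cell cannot be told apart.

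Replication starts at origins that are prepared in G1. The origin recognition complex binds the origin, Cdc6 and Cdt1 load the MCM2-7 ring onto it, and geminin (Gmnn) blocks a second loading by holding Cdt1. In S phase the kinase Cdc7 with Dbf4, and cyclin-dependent kinases, turn the ring into a moving helicase with Cdc45 and GINS. Upstream, cyclin D with Cdk4 or Cdk6 and cyclin E with Cdk2 phosphorylate the retinoblastoma protein Rb1, which releases E2F factors, and these switch on many of the replication genes. Myc factors promote entry into S phase.

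Known E2F sites are found in the promoters of many replication genes, so promoter windows of the members were searched for them. A window of 250 bases before to 50 bases after an annotated start, from RefSeq on GRCm38.p6, was supplied for 46 of the 59 members. Those without a window were Mcm4, Gmnn, Gins1, Gins2, Gins4, Prim2, Pole, Rfc2, Ccnd1, Ccnd2, Ccne2, Rb1 and Myc. The letters TTTCCCGC, TTTGGCGC, TTTCGCGC or TTTGCCGC were sought on both strands, and overlapping matches on opposite strands were both counted. They stood in a window of 19 of the 46 members (41.3%). Over the 7368 tested genes with a window the share was 5.37%, and over all 27025 genes with a window it was 2.6%. Matches stood at members that moved either way, at 5 of 9 called higher, 9 of 22 called lower and 4 of 14 not called, besides Mycn, which was not tested. A call is a limma adjusted p under 0.05. A match describes letters only and is no evidence of binding. The runs below, matches with 26 bases on each side, lie wholly before the start of 8 tested members with unlike behaviour. Mycn and a second stretch of Mcm6 also had such runs, which are not shown. In E2f3, Orc1, Rbl1 and Rfc3 a match began before the start, but its run reached past it. Mcm5 was higher in Dif-FGSC, Mcm7, Cdk2, Pola1, Orc3 and Gins3 were lower, and Mcm6 and Cdc6 were not called. The matched letters are in capitals, each run reads 5′ to 3′ on the gene's strand, and coordinates are of GRCm38.p6.
Mcm5 (chr8:75109330-75109393, plus strand): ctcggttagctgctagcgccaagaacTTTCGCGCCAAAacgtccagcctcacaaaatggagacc
Mcm7 (chr5:138172015-138172074, minus strand): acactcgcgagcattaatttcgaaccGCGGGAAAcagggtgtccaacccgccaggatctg
Cdk2 (chr10:128705158-128705217, minus strand): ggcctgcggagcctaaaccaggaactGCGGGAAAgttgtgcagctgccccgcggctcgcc
Pola1 (chrX:93632260-93632319, minus strand): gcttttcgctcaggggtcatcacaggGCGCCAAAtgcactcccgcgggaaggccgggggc
Orc3 (chr4:34614950-34615009, minus strand): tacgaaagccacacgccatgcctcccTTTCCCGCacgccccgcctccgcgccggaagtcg
Gins3 (chr8:95633492-95633551, plus strand): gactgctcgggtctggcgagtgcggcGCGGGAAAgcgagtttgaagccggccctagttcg
Mcm6 (chr1:128359778-128359841, minus strand): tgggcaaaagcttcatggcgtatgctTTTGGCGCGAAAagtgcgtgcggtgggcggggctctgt
Cdc6 (chr11:98907987-98908046, plus strand): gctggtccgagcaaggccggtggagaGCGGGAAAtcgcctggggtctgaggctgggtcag

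In Mcm5 and Mcm6 a pair of overlapping matches on opposite strands formed one stretch, beginning 153 and 110 bases before the start. The other first matches began 165 bases before the start in Mcm7, 140 in Cdk2, 138 in Pola1, 138 in Cdc6, and 41 in both Orc3 and Gins3.

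Replication genes were highly expressed in both groups and moved by small amounts, more of them down than up in Dif-FGSC. Values were tested as log2(FPKM + 1) with limma over all 9162 genes whose mean was at least 1 FPKM, and 57 members passed that filter. Of these, 14 rose, 27 fell and 16 were not called. Over all tested genes 65.1% were called, 36.5% higher and 28.6% lower, while of the members 24.6% were higher and 47.4% lower. The median log2 difference was -0.11 over the members and 0.0288 over all tested genes. The median size of the difference was alike, at 0.20 over the members and 0.21 over all tested genes. Groups did not overlap for 48 of the 57 members (84.2%), against 70.7% of all tested genes. On the FPKM + 1 scale 25 members were lower by at least 1.1-fold, 13 by at least 1.2-fold and 0 by 1.5-fold, where 28.8%, 16.1% and 3.02% of all tested genes were lower by as much. On the same scale 11 were higher by at least 1.1-fold, 6 by at least 1.2-fold and 1, Cdk6, by more than 2-fold, where the shares of all tested genes were 36.1%, 23.6% and 2.01%. In level, 44 of the 57 stood above the median of all tested genes, and the members' median was 27.2 FPKM, where that of all tested genes was 10.4.

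**Figure D1:**
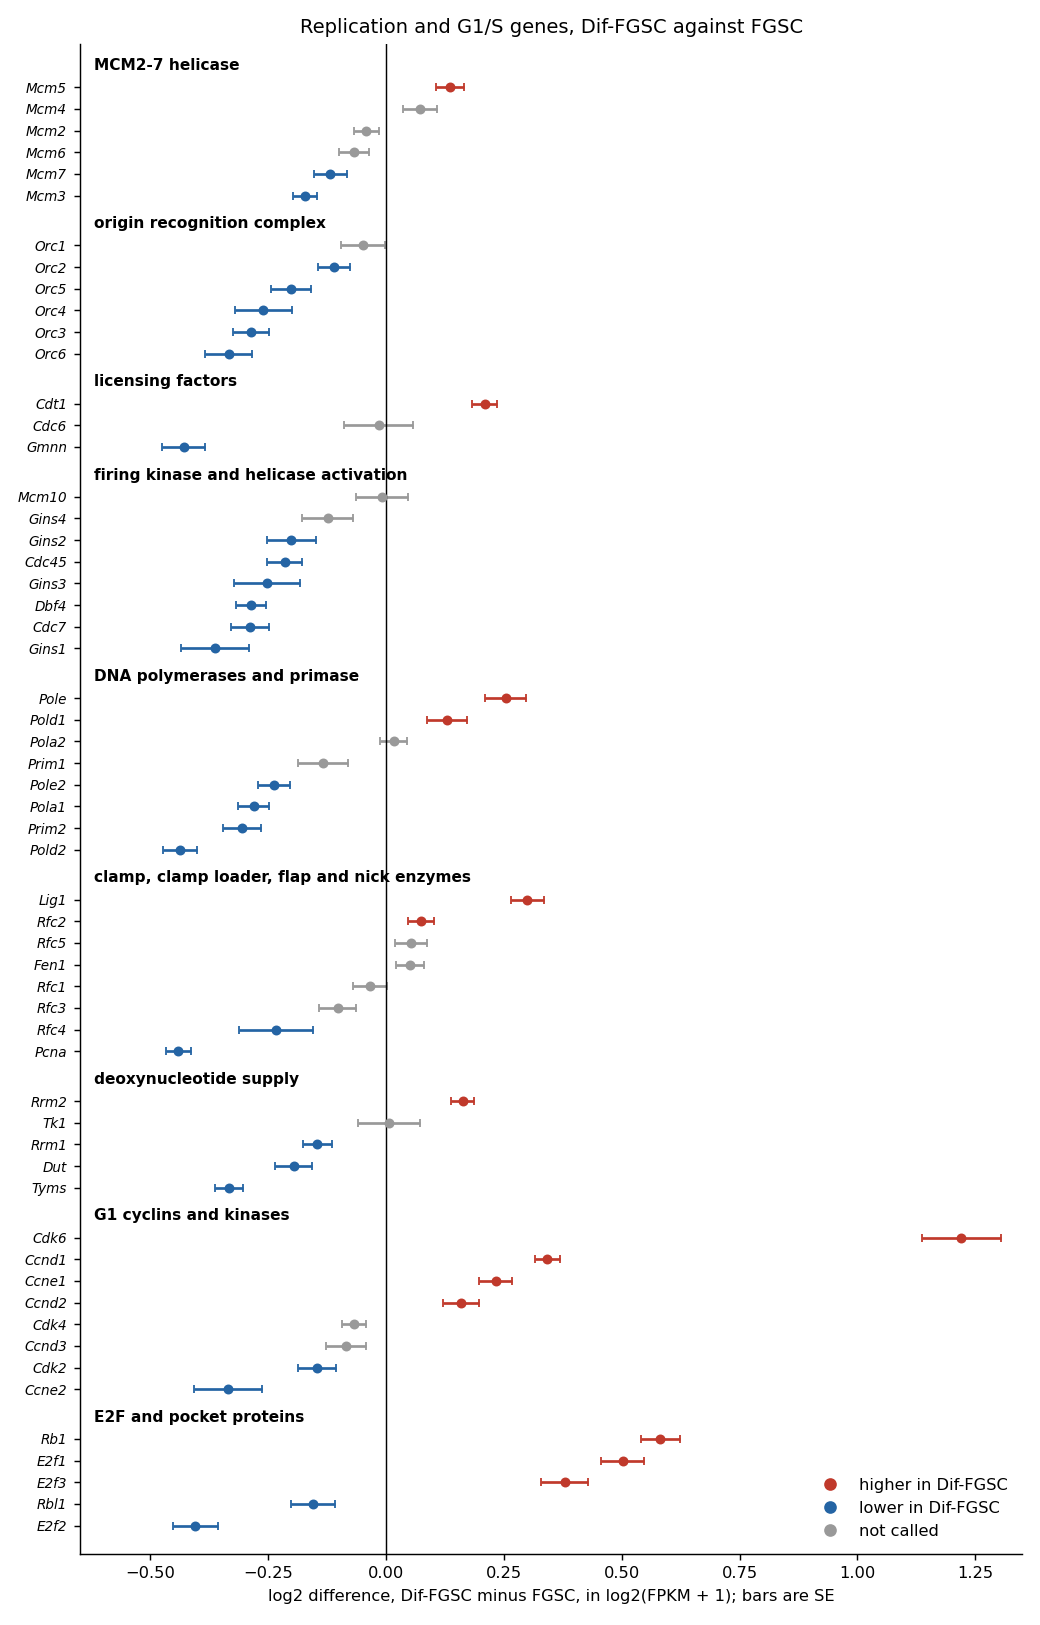
Log2 difference (Dif-FGSC minus FGSC, in log2(FPKM + 1)) of each of the 57 tested members with its standard error, grouped by role; red is called higher in Dif-FGSC, blue called lower and grey not called. Cdk6 stands apart at 1.22, and the origin recognition and firing groups hold no red point.

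The direction of the differences went along with the base composition of the transcripts, in the members as in all genes. The median GC content of the longest annotated transcript was 50.8% for the 14 members that rose, 45.3% for the 27 that fell, 48.9% for those not called and 49.6% over 9115 tested genes. Across all tested genes, the median log2 difference was -0.14 in the tenth with the lowest GC content and 0.15 in the tenth with the highest. Spearman's rho between GC content and log2 difference was 0.261 over those genes and 0.356 over the 57 members, which share the same 6 libraries. After each library's log2 values were adjusted for GC content, a step added after the data were seen, 10 members were higher and 26 lower. Over all genes the adjusted fit called 32.1% higher and 32.3% lower. It ended the calls of Mcm5, Cdt1, Pold1 and Rfc2 among the higher members and of Orc2, Orc4, Orc5, Ccne2, Rbl1 and Rfc4 among the lower ones. It added Mcm2, Mcm6, Gins4, Cdk4 and Ccnd3 as lower. The part of GC content in the members' differences was not tested.

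**Figure D2:**
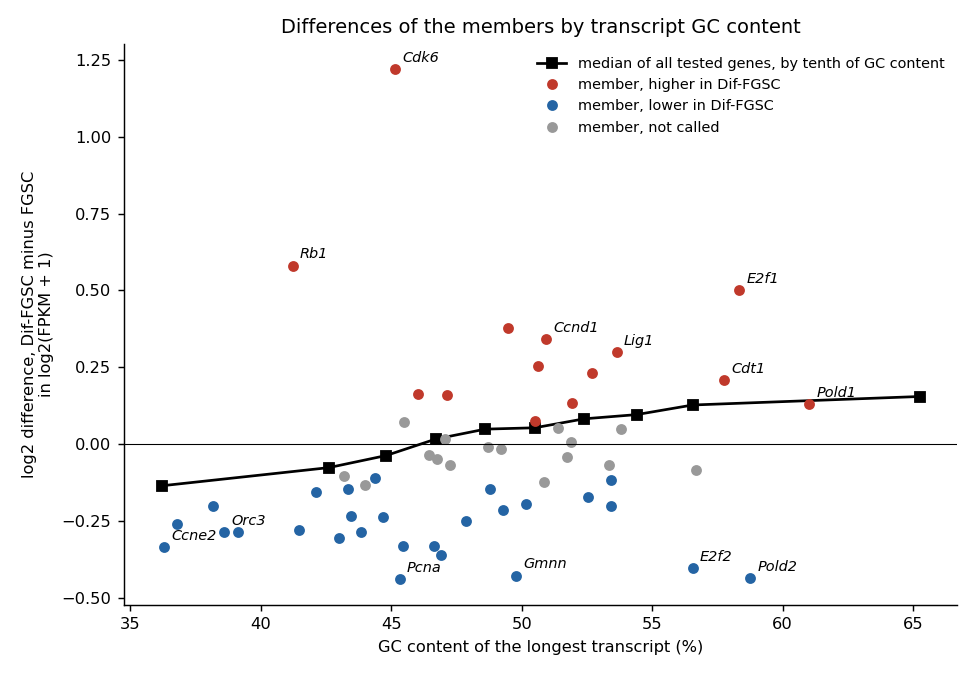
Log2 difference (Dif-FGSC minus FGSC) of each tested member against the GC content of its longest transcript in percent, coloured by call; black squares join the medians of all tested genes in 10 bins of GC content. The squares climb from -0.14 to 0.15, and Rb1 and Cdk6 lie well above them while Pold2 and E2f2 lie well below.

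Among G1 cyclins and their kinases 4 of 8 members rose, 2 fell and 2 were not called. All tested genes gave 36.5% higher and 28.6% lower. Cdk6, a kinase partner of D cyclins that is prominent in blood cells, had 8.03, 7.61 and 7.69 FPKM in Dif-FGSC libraries and 3.14, 2.93 and 2.29 in FGSC libraries. The groups lay far apart, and the mean was 2.79 times as high in Dif-FGSC (log2 difference 1.22 ± 0.084 SE, limma adjusted p = 1.40e-05). This was the largest difference of any member, and it was 1.23 after adjustment for GC content. Its close relative Cdk4 was far more abundant and moved little, with 152, 153 and 152 FPKM in Dif-FGSC and 162, 162 and 155 in FGSC libraries. The ranges of Cdk4 did not overlap, yet it was not called (log2 difference -0.068 ± 0.026 SE, limma adjusted p = 0.05195). It was called lower without FGSC replicate 3 (adjusted p = 0.0108) and after median-ratio scaling (adjusted p = 0.0156), and its sign turned after quantile normalization. Cdk6 made up 4.87% ± 0.146 of the FPKM of both kinases in Dif-FGSC and 1.71% ± 0.233 in FGSC (SD, n = 3 each).

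The D cyclins activate Cdk4 and Cdk6 in response to growth factors. Ccnd1 had 56.1, 57.5 and 56.3 FPKM in Dif-FGSC and 44.1, 44.9 and 44.5 in FGSC libraries, without overlap (log2 difference 0.34 ± 0.027 SE, limma adjusted p = 2.54e-05). Ccnd2 had 46.6, 45.9 and 46.5 FPKM in Dif-FGSC and 43.7, 40.6 and 39.98 in FGSC libraries, where FGSC replicate 1 was the highest of its group (log2 difference 0.16 ± 0.038 SE, limma adjusted p = 0.00727). Ccnd3 had 36.8, 36.3 and 33.9 FPKM in Dif-FGSC and 39.1, 38.3 and 36.2 in FGSC libraries, with overlapping ranges (log2 difference -0.085 ± 0.043 SE, limma adjusted p = 0.1199). Ccnd3 was called lower without FGSC replicate 3 (adjusted p = 0.0438), after median-ratio scaling (adjusted p = 0.046) and after quantile normalization (adjusted p = 0.037). The summed FPKM of the 3 D cyclins was 139 ± 1.72 in Dif-FGSC and 124 ± 3.09 in FGSC. Ccnd1 held 40.9% ± 0.526 of it in Dif-FGSC and 35.95% ± 1.09 in FGSC, and Ccnd3 held 25.7% ± 0.798 in Dif-FGSC and 30.6% ± 0.52 in FGSC, while the share of Ccnd2 overlapped between groups.

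The E cyclins, which activate Cdk2 at the entry to S phase, moved in opposite directions. Ccne1 had 41.8, 44.5 and 44.6 FPKM in Dif-FGSC and 36.5, 37.5 and 36.95 in FGSC libraries (log2 difference 0.23 ± 0.034 SE, limma adjusted p = 6.72e-04). Ccne2 had 5.07, 5.83 and 6.39 FPKM in Dif-FGSC and 7.205, 7.55 and 7.78 in FGSC libraries (log2 difference -0.34 ± 0.073 SE, limma adjusted p = 0.0046). In neither gene did the groups overlap. The fall of Ccne2 was -0.14 and no longer called after adjustment for GC content (adjusted p = 0.124). Cdk2 had 17.6, 16.8 and 16.98 FPKM in Dif-FGSC and 18.9, 18.5 and 19.95 in FGSC libraries and fell slightly (log2 difference -0.15 ± 0.040 SE, limma adjusted p = 0.0128).

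All 5 tested E2F and pocket protein genes were called, 3 higher and 2 lower, where 65.1% of all tested genes were called. After adjustment for GC content 3 of these genes were higher and 1 lower. E2f1, E2f2 and E2f3 are the activating E2F factors. E2f1 had 9.14, 8.49 and 8.19 FPKM in Dif-FGSC and 5.76, 5.69 and 5.88 in FGSC libraries, 1.49 times as high in Dif-FGSC (log2 difference 0.50 ± 0.046 SE, limma adjusted p = 6.06e-05). E2f3 had 4.64, 4.63 and 4.24 FPKM in Dif-FGSC and 3.36, 3.24 and 3.096 in FGSC libraries (log2 difference 0.38 ± 0.050 SE, limma adjusted p = 3.64e-04). E2f2 went the other way, with 2.08, 2.03 and 2.07 FPKM in Dif-FGSC and 3.01, 2.92 and 3.22 in FGSC libraries (log2 difference -0.41 ± 0.048 SE, limma adjusted p = 2.08e-04). None of these genes had overlapping groups. E2f2 made up 13.6% ± 0.601 of the FPKM of the 3 activators in Dif-FGSC and 25.3% ± 0.934 in FGSC, and E2f1 made up 56.7% ± 0.825 in Dif-FGSC and 47.9% ± 0.376 in FGSC.

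Rb1, the retinoblastoma protein that holds E2F factors in check, had 8.83, 8.79 and 8.85 FPKM in Dif-FGSC and 5.51, 5.34 and 5.85 in FGSC libraries, 1.58 times as high in Dif-FGSC (log2 difference 0.58 ± 0.041 SE, limma adjusted p = 1.66e-05). Its relative Rbl1 (p107) had 6.98, 6.57 and 6.63 FPKM in Dif-FGSC and 7.33, 7.44 and 8.05 in FGSC libraries and fell (log2 difference -0.16 ± 0.047 SE, limma adjusted p = 0.01997). That fall was not called without Dif-FGSC replicate 2 (adjusted p = 0.0673) or replicate 3 (adjusted p = 0.0615). With Rbl2 (p130) added, the pocket proteins summed to 22.7 ± 0.361 FPKM in Dif-FGSC and 17.8 ± 1.37 in FGSC. Rbl1 held 29.6% ± 0.506 of that sum in Dif-FGSC and 42.7% ± 1.05 in FGSC. Mycn was listed at 0 in every library, and a count of 0, taken as fewer than 3 fragments, would in the shallowest library permit a level of 0.0643 FPKM.

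**Figure D3:**
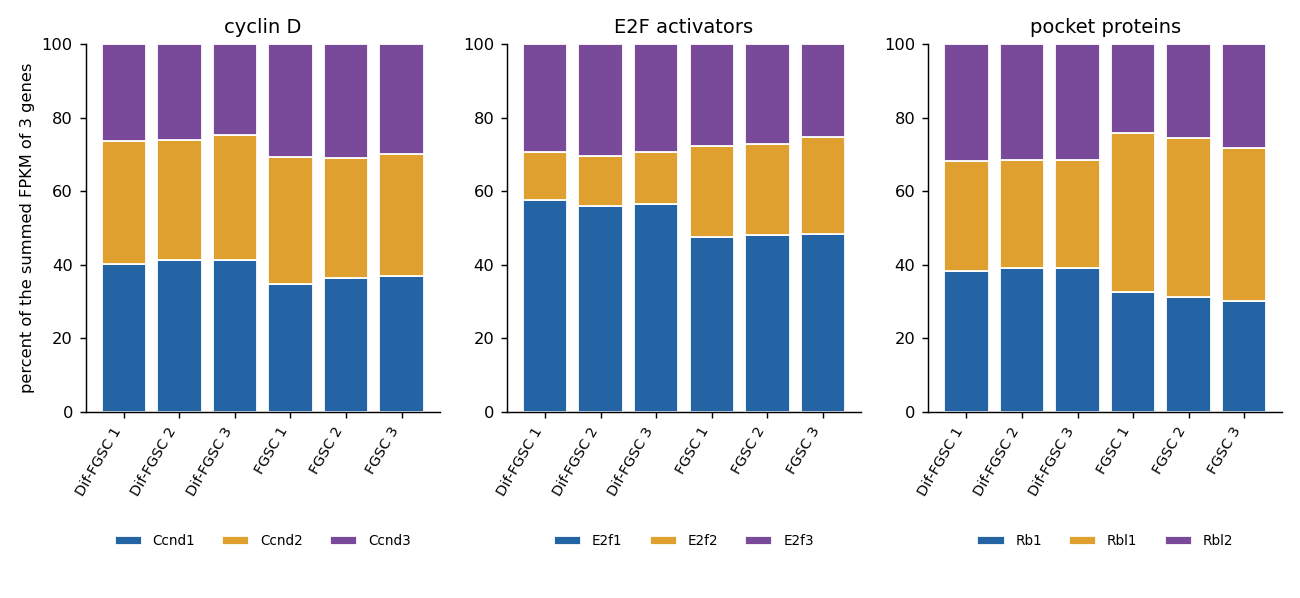
Share of each gene in the summed FPKM of the D cyclins, of the activating E2F factors and of the pocket proteins, in percent, with 1 bar per library and Dif-FGSC to the left of FGSC. E2f2 takes 13.6% ± 0.601 in Dif-FGSC and 25.3% ± 0.934 in FGSC (mean and SD of 3 libraries), and Rbl1 takes 29.6% ± 0.506 in Dif-FGSC and 42.7% ± 1.05 in FGSC.

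The MCM2-7 genes encode the 6 subunits of the replicative helicase, which assemble in equal numbers. Of these, 1 rose, 2 fell and 3 were not called, where 36.5% of all tested genes were higher and 28.6% lower. No subunit differed by more than 1.2-fold on the FPKM + 1 scale. Mcm3 had 182, 180.2 and 186 FPKM in Dif-FGSC and 206, 209.7 and 202 in FGSC libraries (log2 difference -0.17 ± 0.026 SE, limma adjusted p = 7.12e-04). Mcm7 had 45.6, 47.3 and 43.98 FPKM in Dif-FGSC and 49.4, 50.5 and 48.8 in FGSC libraries (log2 difference -0.12 ± 0.035 SE, limma adjusted p = 0.0184). The Mcm7 call was lost without Dif-FGSC replicate 1 (adjusted p = 0.0537), Dif-FGSC replicate 3 (adjusted p = 0.06) or FGSC replicate 2 (adjusted p = 0.0615). Mcm5 had 66.9, 66.6 and 64.2 FPKM in Dif-FGSC and 58.8, 60.96 and 59.9 in FGSC libraries and rose (log2 difference 0.13 ± 0.030 SE, limma adjusted p = 0.00488), a call that ended after adjustment for GC content (adjusted p = 0.121).

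The 3 subunits that were not called lay closer together. Mcm2 had 118, 117 and 115 FPKM in Dif-FGSC and 120.5, 122 and 118 in FGSC libraries (log2 difference -0.042 ± 0.026 SE, limma adjusted p = 0.189). Mcm4 had 63.1, 67.4 and 62.2 FPKM in Dif-FGSC and 61.5, 61.4 and 60.03 in FGSC libraries (log2 difference 0.073 ± 0.036 SE, limma adjusted p = 0.112). Mcm6 had 86.4, 85.8 and 87.1 FPKM in Dif-FGSC and 94.1, 90.6 and 87.4 in FGSC libraries (log2 difference -0.068 ± 0.032 SE, limma adjusted p = 0.0986). Mcm6 was called lower without FGSC replicate 3 (adjusted p = 0.0214), and both Mcm2 and Mcm6 were after median-ratio scaling (adjusted p = 0.0439 and 0.0297). For all 6 subunits the 2 groups did not overlap, as was so for 70.7% of all tested genes. For Mcm2 and Mcm6 the groups nearly touched, and the sign of Mcm2 turned after quantile normalization. Per length, Mcm3 was the most abundant and Mcm7 the least abundant subunit in every library. The 6 genes summed to 561 ± 3.08 FPKM in Dif-FGSC and 587 ± 9.68 in FGSC, of which Mcm3 held 32.5% ± 0.683 in Dif-FGSC and 35.1% ± 0.204 in FGSC.

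Of the 6 subunits of the origin recognition complex 5 fell, where 28.6% of all tested genes were lower and 36.5% higher. Orc1 was not called, and 0 of the subunits rose by limma, nor did any at an unadjusted p under 0.05. Orc6 had 11.6, 13.3 and 12.8 FPKM in Dif-FGSC and 16.2, 15.97 and 16.2 in FGSC libraries (log2 difference -0.33 ± 0.050 SE, limma adjusted p = 7.11e-04). Orc3, Orc4, Orc5 and Orc2 stood at 0.795, 0.748, 0.866 and 0.923 times their FGSC level, without overlap of groups. Orc4 was the lowest tested member, at 1.56, 1.39 and 1.26 FPKM in Dif-FGSC and 1.93, 1.89 and 1.81 in FGSC libraries. Orc1, the subunit whose protein level follows the cell cycle in human cells, had 13.2, 13.1 and 14.1 FPKM in Dif-FGSC and 13.8, 14.8 and 13.4 in FGSC libraries, with overlapping ranges (log2 difference -0.050 ± 0.047 SE, limma adjusted p = 0.374). These transcripts were poor in GC, with a median of 41.5%, and after adjustment for GC content 2 of the 6, Orc3 and Orc6, were called lower, a share near the 32.3% of all genes in that fit. The Orc2 call was also lost without Dif-FGSC replicate 1, Dif-FGSC replicate 2, FGSC replicate 1 or FGSC replicate 2 (adjusted p = 0.0504 to 0.0817).

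Licensing factors split. Gmnn, the inhibitor of relicensing, had 62.5, 60.9 and 59.5 FPKM in Dif-FGSC and 88.2, 80.4 and 78.9 in FGSC libraries and fell without overlap of groups (log2 difference -0.43 ± 0.046 SE, limma adjusted p = 1.24e-04). Its binding partner Cdt1, which loads the helicase, had 63.5, 66.02 and 64.8 FPKM in Dif-FGSC and 55.8, 55.8 and 56.04 in FGSC libraries and rose (log2 difference 0.21 ± 0.027 SE, limma adjusted p = 3.37e-04). The rise of Cdt1 was not called after adjustment for GC content (log2 difference 0.064, adjusted p = 0.0795), while the fall of Gmnn was -0.48. Cdc6, the other loader, had 7.8, 8.19 and 7.11 FPKM in Dif-FGSC and 7.495, 8.68 and 7.26 in FGSC libraries and was not called (adjusted p = 0.857).

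Of 8 factors that fire origins and build the moving helicase 6 were called lower and 0 higher. All tested genes gave 28.6% lower and 36.5% higher. At an unadjusted limma p under 0.05 the counts of these 8 factors were 6 lower and 0 higher. Gins1, a subunit of the GINS complex that binds the helicase, had 11.01, 11.5 and 13.6 FPKM in Dif-FGSC and 15.1, 15.9 and 16.1 in FGSC libraries (log2 difference -0.36 ± 0.073 SE, limma adjusted p = 0.00314). Cdc7, the firing kinase, averaged 4.92 ± 0.0743 FPKM in Dif-FGSC and 6.23 ± 0.199 in FGSC and its activator Dbf4 averaged 24.4 ± 0.365 FPKM in Dif-FGSC and 30.02 ± 0.678 in FGSC. They stood at 0.7896 and 0.814 times their FGSC level, both without overlap of groups. Gins3, Cdc45, which joins GINS on the helicase, and Gins2 stood at 0.822, 0.848 and 0.868 times. The Gins3 call was lost without Dif-FGSC replicate 2 (adjusted p = 0.0529) or replicate 3 (adjusted p = 0.0514). Gins4 was not called (adjusted p = 0.07295), but was called lower without Dif-FGSC replicate 3 (adjusted p = 0.0107), with median-ratio scaling (adjusted p = 0.0304) and after quantile normalization (adjusted p = 0.0386). Mcm10, a firing factor, averaged 12.9 ± 0.545 FPKM in Dif-FGSC and 12.98 ± 0.927 in FGSC and was not called.

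DNA polymerases went in both directions, with 4 of 8 genes lower, 2 higher and 2 not called. All tested genes gave 28.6% lower and 36.5% higher. Pold2, an accessory subunit of polymerase delta, had 64.3, 61.1 and 59.3 FPKM in Dif-FGSC and 81.9, 85.4 and 83.6 in FGSC libraries (log2 difference -0.44 ± 0.036 SE, limma adjusted p = 3.54e-05). Pole, the catalytic subunit of the leading strand polymerase epsilon, had 28.1, 26.9 and 27.3 FPKM in Dif-FGSC and 21.6, 22.8 and 24.1 in FGSC libraries and rose (log2 difference 0.25 ± 0.043 SE, limma adjusted p = 0.00138). Among the members, the subunits of epsilon thus moved apart. For delta the same rested on Pold1, whose call was not stable, as given below. Pole2, the second subunit of epsilon, fell to 0.84 times its FGSC level. Pold1, the catalytic subunit of delta, averaged 32.02 ± 1.79 FPKM in Dif-FGSC and 29.2 ± 0.0818 in FGSC and was called higher (adjusted p = 0.0295). The Pold1 call was lost without any 1 of the libraries except Dif-FGSC replicate 3 (adjusted p = 0.0567 to 0.103) and after median-ratio scaling (adjusted p = 0.0878) or quantile normalization (adjusted p = 0.263), and its sign turned after adjustment for GC content (log2 difference -0.0405). Pola1, the catalytic subunit of the priming polymerase alpha, and Prim2, the large primase subunit, fell to 0.813 and 0.805 times. Prim1, the small primase subunit, and Pola2 were not called, at 0.91 and 1.01 times, and Prim1 was called lower without Dif-FGSC replicate 3 (adjusted p = 0.0226), with median-ratio scaling (adjusted p = 0.0271), after quantile normalization (adjusted p = 0.0336) and with a filter at 5 FPKM (adjusted p = 0.0477).

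The sliding clamp fell while most of its partners moved little. Pcna, the clamp that tethers polymerases to DNA, was the most abundant member, with 235, 233 and 228 FPKM in Dif-FGSC and 311, 314 and 322 in FGSC libraries (log2 difference -0.44 ± 0.026 SE, limma adjusted p = 7.08e-06). The groups lay far apart. On the log2(FPKM + 1) scale this difference was close to those of Pold2, Gmnn and E2f2, and which member fell most changed with the pseudocount, the scaling and the libraries used. After quantile normalization the log2 difference of Pcna was -0.287. Lig1, the ligase that seals Okazaki fragments, rose, with 19.5, 19.4 and 18.3 FPKM in Dif-FGSC and 15.1, 15.4 and 15.3 in FGSC libraries (log2 difference 0.30 ± 0.035 SE, limma adjusted p = 2.04e-04). Fen1, the flap nuclease of the same step, averaged 22.5 ± 0.343 FPKM in Dif-FGSC and 21.7 ± 0.0464 in FGSC and was not called (adjusted p = 0.163). Of the 5 clamp loader genes, Rfc2 was called higher (adjusted p = 0.0435), Rfc4 lower (adjusted p = 0.0307), and Rfc1, Rfc3 and Rfc5 were not called. Rfc2 and Rfc4 were near the threshold. Leaving out any 1 library except FGSC replicate 3 ended the call of Rfc2 (adjusted p = 0.0748 to 0.124), as did median-ratio scaling (adjusted p = 0.241), and leaving out any except Dif-FGSC replicate 3 ended that of Rfc4 (adjusted p = 0.054 to 0.0942). Rfc3 was called lower without Dif-FGSC replicate 3 (adjusted p = 0.041), with median-ratio scaling (adjusted p = 0.0181) and with a filter at 5 FPKM (adjusted p = 0.0459). Rfc1 was called lower after quantile normalization (log2 difference -0.12, adjusted p = 0.0165). The 5 loader genes summed to 278 ± 5.43 FPKM in Dif-FGSC and 279.97 ± 0.955 in FGSC.

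Of the 5 enzymes of deoxynucleotide supply 3 fell and 1 rose, where 28.6% of all tested genes fell and 36.5% rose. Tyms, which makes dTMP, had 15.1, 15.3 and 15.4 FPKM in Dif-FGSC and 19.6, 19.4 and 19.3 in FGSC libraries (log2 difference -0.33 ± 0.030 SE, limma adjusted p = 5.27e-05). The subunits of ribonucleotide reductase, the enzyme that makes deoxynucleotides, moved apart. Rrm2, its small subunit, averaged 186 ± 1.03 FPKM in Dif-FGSC and 166 ± 3.37 in FGSC and rose (log2 difference 0.16 ± 0.025 SE, limma adjusted p = 8.65e-04). Rrm1, its large subunit, averaged 129.5 ± 3.17 FPKM in Dif-FGSC and 143 ± 3.61 in FGSC and fell (log2 difference -0.15 ± 0.031 SE, limma adjusted p = 0.00409), a call lost after quantile normalization (adjusted p = 0.163). Dut, which removes dUTP, averaged 62.1 ± 0.864 FPKM in Dif-FGSC and 71.4 ± 3.49 in FGSC and fell, while Tk1, the thymidine salvage kinase, averaged 13.8 ± 0.976 FPKM in Dif-FGSC and 13.7 ± 1.02 in FGSC and was not called (adjusted p = 0.934).

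**Figure D4:**
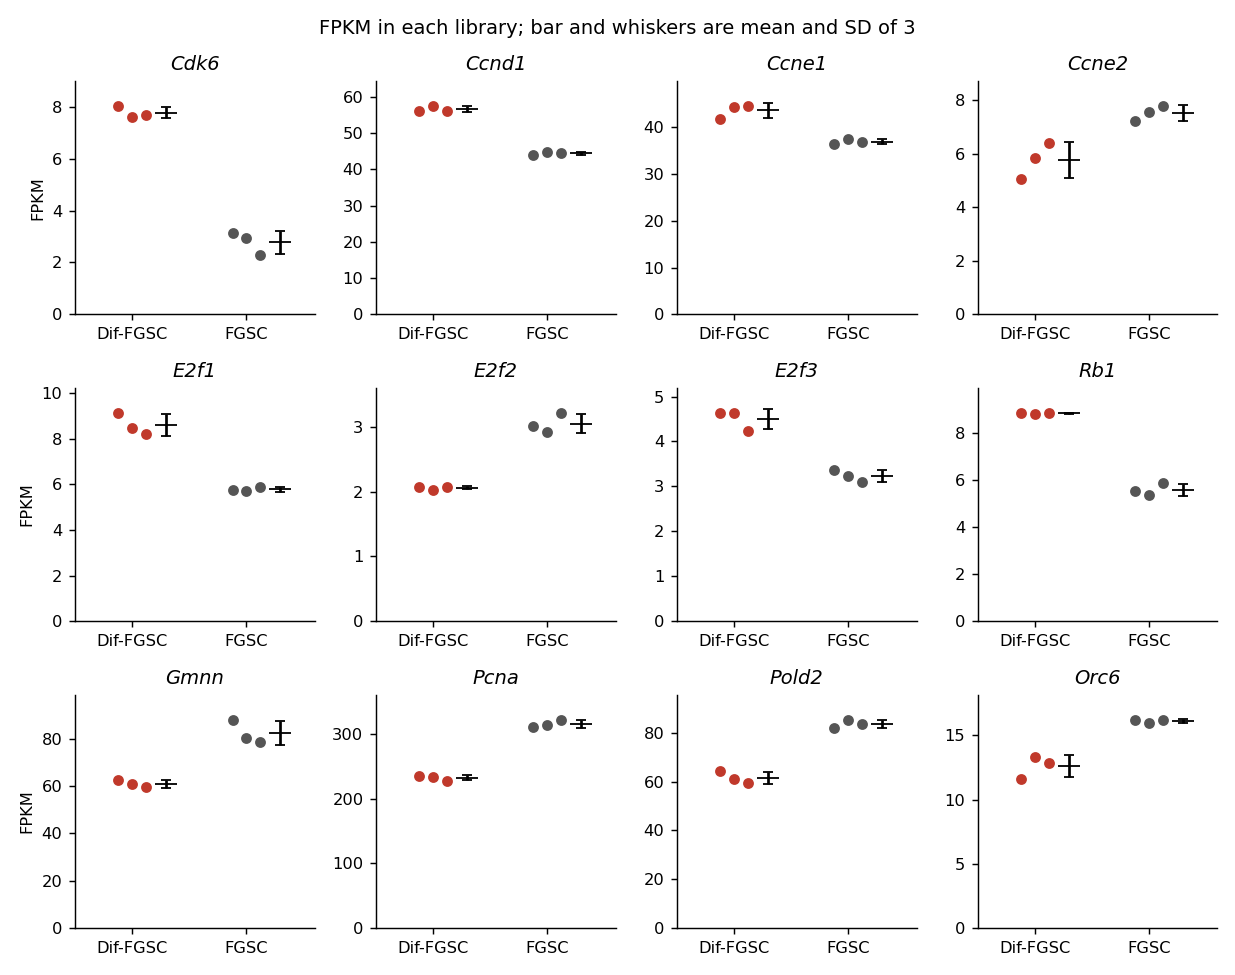
FPKM of 12 members in each library, with Dif-FGSC left of FGSC; points are libraries, and the bar with whiskers is the mean and SD of 3. Cdk6, Ccnd1, Ccne1, E2f1, E2f3 and Rb1 lie higher in Dif-FGSC and Ccne2, E2f2, Gmnn, Pcna, Pold2 and Orc6 lower, with no overlap of groups in any panel. Over all tested genes 70.7% had no overlap.

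Other genes of replication and cell cycle control, 101 in the table, were read beside the members. Of the 94 tested, 31 were higher and 35 lower, or 33% and 37.2%, where all tested genes gave 36.5% and 28.6%. Among 25 further fork genes 7 were higher and 13 lower, with a median log2 difference of -0.15. Rnaseh2a, the catalytic subunit of ribonuclease H2, stood out with 17.2 ± 0.7895 FPKM in Dif-FGSC and 6.76 ± 0.858 in FGSC (log2 difference 1.23 ± 0.081 SE, limma adjusted p = 1.15e-05). Atad5, which unloads the clamp, and Chaf1b, a subunit of chromatin assembly factor 1, fell to 0.755 and 0.792 times. Among 18 further licensing and firing genes 5 were higher and 6 lower. Fbxo5, an inhibitor of the anaphase-promoting complex that keeps geminin from destruction, averaged 25. ± 0.115 FPKM in Dif-FGSC and 38.5 ± 1.88 in FGSC (log2 difference -0.60 ± 0.039 SE, limma adjusted p = 1.14e-05). Cks1b, a subunit of cyclin-dependent kinases, fell to 0.753 times and Rif1, a regulator of replication timing, to 0.746 times. Among 16 tested genes of nucleotide supply 4 were higher and 6 lower. Cad, which starts pyrimidine synthesis, averaged 48.7 ± 1.43 FPKM in Dif-FGSC and 25.1 ± 0.649 in FGSC (log2 difference 0.93 ± 0.035 SE, limma adjusted p = 1.02e-06). Samhd1, which degrades deoxynucleotides, stood at 1.37 times its FGSC level.

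Regulators of E2F and of the cyclin-dependent kinases were read in the same way. The first list held further E2F factors and their partners, genes of the DREAM complex, which represses cell cycle genes in quiescence, and Mybl2. Of its 13 tested genes 7 were higher and 0 lower by limma, with 0 lower at an unadjusted p under 0.05, and a median log2 difference of 0.15. The 6 not called were E2f4, Tfdp1, Lin9, Lin52, Lin54 and Rbbp4. The share called, 53.8%, was below the 65.1% of all tested genes. Rbl2 (p130), a pocket protein of the DREAM complex, averaged 7.198 ± 0.129 FPKM in Dif-FGSC and 4.67 ± 0.745 in FGSC (log2 difference 0.54 ± 0.086 SE, limma adjusted p = 9.75e-04). E2f6, a repressor, and Mybl2, a late cell cycle factor, stood at 1.399 and 1.26 times their FGSC level. The inhibitors of cyclin-dependent kinases parted. Cdkn1a (p21) averaged 46.1 ± 0.491 FPKM in Dif-FGSC and 25.8 ± 2.14 in FGSC (log2 difference 0.82 ± 0.055 SE, limma adjusted p = 1.33e-05), whereas Cdkn1b (p27) averaged 12.7 ± 0.663 FPKM in Dif-FGSC and 18.5 ± 0.888 in FGSC (log2 difference -0.50 ± 0.050 SE, limma adjusted p = 8.54e-05). Cdkn2c (p18) fell to 0.865 times, and Cdkn2a was listed at 0 in every library. Of 6 tested genes of the Myc network 4 were higher and 2 lower. Mnt, Mxd4 and Mxd1, which compete with Myc for its partner Max, stood at 1.58, 1.47 and 1.698 times their FGSC level (adjusted p = 1.53e-04, 8.52e-04 and 5.42e-05). The 2 that were lower were Mxi1, another such competitor, at 0.779 times (adjusted p = 0.00117), and Max itself, at 0.926 times (adjusted p = 0.0385). Of 12 mitotic genes 3 were higher and 6 lower. Mki67, the proliferation marker Ki-67, averaged 25.4 ± 0.358 FPKM in Dif-FGSC and 57.6 ± 8.42 in FGSC (log2 difference -1.14 ± 0.089 SE, limma adjusted p = 2.64e-05). Bub1, a checkpoint kinase, fell to 0.594 times, while Foxm1, a factor that drives mitotic genes, stood at 1.39 times its FGSC level.

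**Figure D5:**
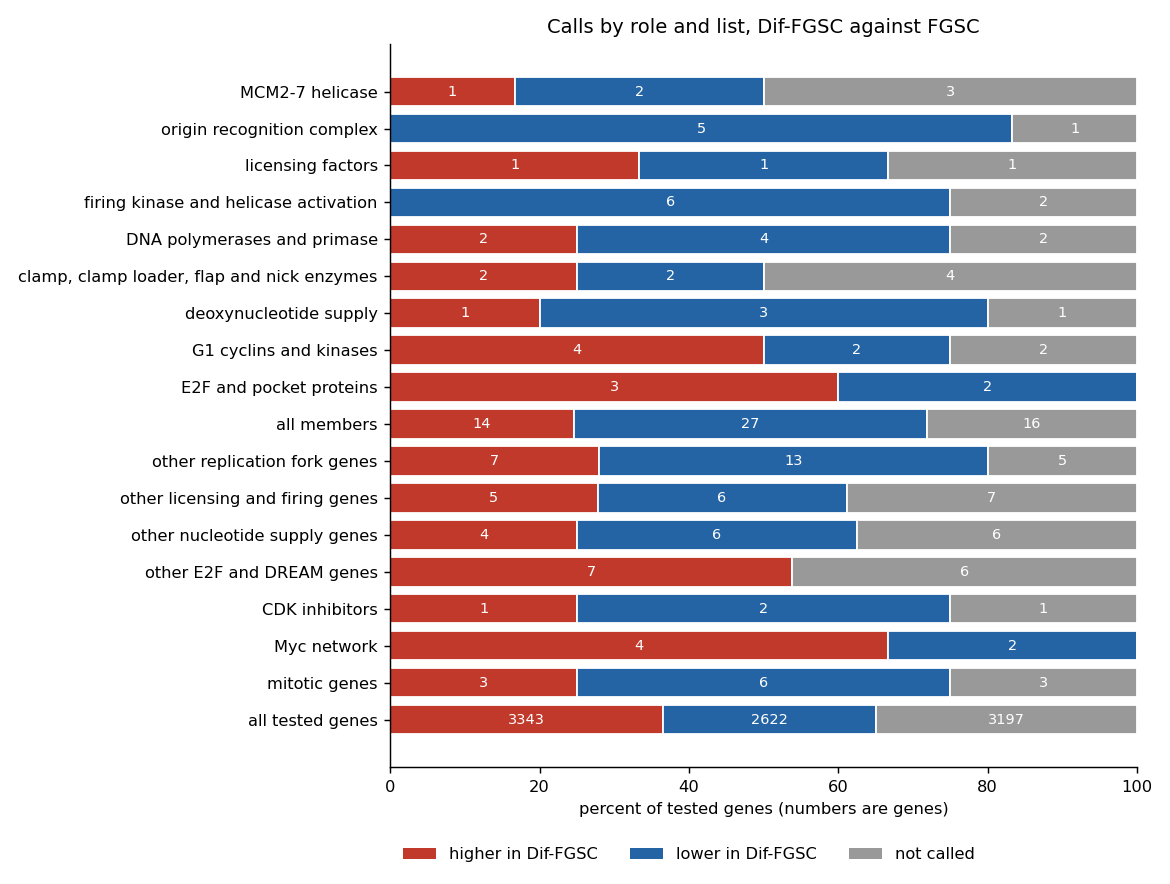
Percent of the tested genes of each role, of the other pathway lists and of all tested genes that were called higher in Dif-FGSC (red), called lower (blue) or not called (grey), with gene numbers in the bars. Lower calls take 47.4% of all members and 28.6% of all tested genes.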

How the data were processed

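The authors deposited FPKM values per gene symbol and library. Per the labels' protocols the libraries came from a stranded mRNA kit. The submitters' processing notes name HISAT2 4.8.2, Cufflinks 2.2.1 and build mm9, and the annotation and strand setting were not given. Exons of 15 members overlap an expressed gene on the other strand in GENCODE M21 (2 called higher, 8 lower, 5 not called), and the values of these are uncertain: Ccnd3, Ccne2, Cdc45, Cdk4, Fen1, Gins2, Mcm7, Orc2, Orc4, Orc6, Rb1, Rfc2, Rfc4, Rfc5 and Tk1.

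Columns named con were read as FGSC and columns named dif as Dif-FGSC, and every direction rests on that reading. Where a symbol stood in 2 rows, as happened for 2 symbols, the lower row was dropped, and 1 stray cell beside the columns was left out.

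Limma 3.58.1 in R 4.3.3 (eBayes with trend, two-sided) was run on log2(FPKM + 1), a scale that understates changes of low genes, for 9162 genes with a mean of at least 1 FPKM. Calls are at a Benjamini-Hochberg adjusted p under 0.05 over all of them. Differences are Dif-FGSC minus FGSC with the SE of the moderated fit, ± after FPKM is the SD of 3 libraries, and ratios are of mean FPKM. The fit was tested on simulated data. No label ties libraries to separate cultures, so p-values reflect library-to-library variation that could be purely technical.

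Depth was estimated from the spacing of low FPKM values in single-transcript genes, of which 81.8% to 93.8% by library were whole fragments within 0.1. Chance would give 20% at a spacing not fitted to the data. Of the tested members 35 had at least 1000 estimated fragments in every library, and Orc4 had the fewest, about 102. These figures cover counting error only.

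Members and lists were chosen with earlier results of these data known. Values in every library are given for MCM2-7, cyclin, E2F and Myc genes, for the 8 members that rose most and the 8 that fell most (called, groups not overlapping), and for members below 1 FPKM or at 0. Up to 3 called genes are named per further list. Other members given with values were picked after these were seen, as were Cdkn2a, Mxi1 and Max. Alternatives covered pseudocount, filter, scaling, trend, replicate block, left-out libraries and, added after the data were seen, GC content.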

Additional observations from a re-analysis of the deposited data

How the results depend on the processing

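Of 57 tested members, 36 kept their call under all 15 alternatives that gave them a value, and the 28 of these that were called also kept their direction. The sign of Cdc6, Fen1, Mcm10, Pola2, Rfc5 and Tk1, which were not called, turned in some alternatives. Counts of called members and of all called genes stayed within 1.5 times of the reported count in each alternative. Called members numbered 10 to 14 higher and 23 to 34 lower over all settings. The extremes were 10 higher after adjustment for GC content, 34 lower with median-ratio scaling and 23 lower without Dif-FGSC replicate 2. The balance of calls over all tested genes moved too. Of all calls, 49.9%, 50.3% and 56.7% were higher in these 3 settings, where the reported fit gave 56%. Among the called members the shares were 27.8%, 26.1% and 34.3%, where the reported fit gave 34.1%. The members' median log2 difference was -0.11. It was -0.145 with median-ratio scaling and -0.0899 after adjustment for GC content, ranged from -0.127 to -0.0834 when each library was left out, and lay below the median of all tested genes in every setting. The log2 difference of Pold1 was 0.13, but -0.0405 and not called after adjustment for GC content (adjusted p = 0.321). The replicate block gave 13 members higher and 30 lower, with Gins4, Prim1 and Rfc3 among those it added as lower. Over all 9162 tested genes it called 3241 higher and 2557 lower. Deviations of same-numbered libraries correlated at 0.131, 0.012 and 0.173. The same number was the best match of Dif-FGSC replicates 1 and 3, while Dif-FGSC replicate 2 correlated best with FGSC replicate 3 (0.049). The planned fit had no replicate block, and the numbers were not taken as pairs. The causes of these changes were not tested.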

Other observations

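Other short motifs were counted in the same promoter windows. The CCAAT box (CCAAT, either strand) stood in 24 of 46 members with a window (52.2%), against 43.3% of tested genes and 41.1% of all genes with a window. The E-box of Myc and related factors (CACGTG) stood in 9 of 46 members (19.6%), against 12.4% of tested genes and 8.09% of all genes. The CHR element of DREAM targets (TTTGAA) stood in 10 of 46 members (21.7%), against 13.8% of tested genes. That share was close to the 20.2% of all genes with a window. By call, the CCAAT box was found in 3 of 9 members called higher, 13 of 22 called lower and 8 of 14 not called. The E-box was found in 3 of 9 called higher, 2 of 22 called lower and 4 of 14 not called. The CHR element was found in 1 of 9 called higher, 6 of 22 called lower and 2 of 14 not called. These counts are descriptions without a test.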
